A study of Mus musculus with 5 samples.

Results

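Loss of the receptor Notch2 from the fetal muscle lineage was compared with the wild type in 4 RNA-seq libraries of sorted limb cells from mouse fetuses at E16.5. The 2 Notch2 conditional knockout (cKO) libraries came from Pax7-CreER; Notch2f/f; Rosa-tdTomato fetuses, and the 2 wild-type (WT) libraries from Pax7-CreER; Rosa-tdTomato fetuses without a floxed Notch allele. Both groups were labelled C57BL/6J and carried the Pax7-CreER driver, which is active in Pax7-expressing cells, and the tdTomato reporter. The mothers of both groups received oral tamoxifen (240 mg/kg body weight, at 20 mg/mL in corn oil) for 2 days from E12.5. Lin-/tdTomato+ cells were sorted from dissociated limb muscle, with CD31, CD45 and Ter119 among the antibodies used. A single library of a Notch1 cKO completed the series of 5 samples and entered only the filter and the gene means here. The members were the 11543 named genes, of 25873 in the deposited table, whose mean over the 5 libraries was at least 1 RPKM (reads divided by gene length in kilobases and by the depth of the library). The libraries are called by the embryo number in their column names: Em3 and Em4 of the Notch2 cKO, Em2 and Em4 of the WT. Pairs of values are given in this order. Nothing in the labels says that libraries of a group came from separate litters or cultures, so every p-value measures the spread between these libraries, which may be technical.

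Notch receptors are cleaved after binding a Delta or Jagged ligand on a neighbouring cell, and the freed intracellular domain joins the DNA-binding protein Rbpj to switch on genes such as Hes1 and the Hey family. In fetal muscle, Notch signalling is known for holding Pax7-expressing progenitors back from differentiation. Myf5 and Myod1 mark commitment to the muscle lineage, and Myog marks the onset of differentiation.

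The libraries held 20740258 to 28827897 reads, as recovered from the steps between the RPKM values, and the median tested gene had 738 reads per library. Pax7, Myf5, Myod1, Myog, Des and Cdh15, the markers of the sorted lineage, were all detected in all 4 libraries, and Cdh15 stood at 117 to 196 RPKM. Xist was at most 0.0135 RPKM in every library and Ddx3y between 21.1 and 28.7 RPKM, so the libraries did not divide by fetal sex. The share of named genes listed at 0 was 12.7% in Notch2 cKO Em3, 24.5% in Notch2 cKO Em4, 31.7% in WT Em2 and 31.3% in WT Em4.

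The libraries also differed by gene length, and this had to be removed before genes were compared. The difference between the WT libraries, Em2 minus Em4, ran with gene length at a Spearman correlation of -0.483 across genes, which are not independent replicates. The difference between the groups ran with it at 0.248. After a local regression of each library on gene length was subtracted, these values were 0.023 and -0.026, and the all-gene median of the log2 fold change moved from 0.14 to 0.003. The standard deviation across genes of the difference between the WT libraries moved from 0.41 to 0.345, and that between the Notch2 cKO libraries from 0.443 to 0.424. For the 179 genes under 200 bases the correction worked less well, since their median fold change was 0.085 before it and 0.345 after it. Of the longer classes, the corrected median lay farthest from 0 at 200 to under 500 bases, at -0.076. All fold changes below are corrected log2 differences of RPKM + 1, Notch2 cKO minus WT, unless called uncorrected, and they understate the change of genes near 1 RPKM.

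**Figure D1:**
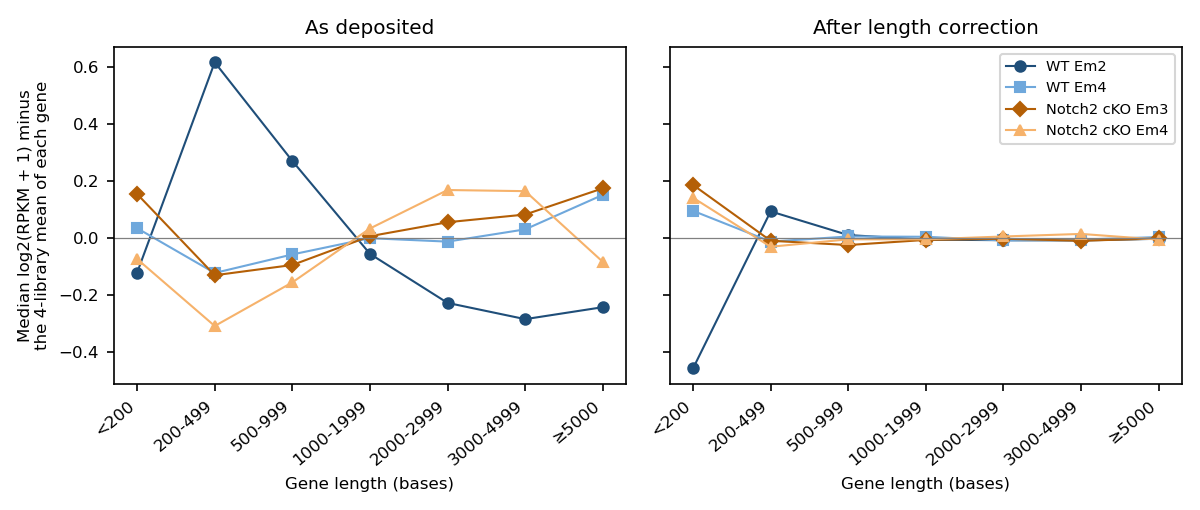
Median log2(RPKM + 1) of each library minus the 4-library mean of each gene, by gene length class, as deposited (left) and after the length correction (right), with 1 line per library. WT Em2 stood 0.616 above the mean at 200 to under 500 bases and 0.285 below it at 3000 to under 5000 bases before the correction, and after it all libraries lay near 0 except in the class under 200 bases.

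With the length trend removed, 1 of 11543 genes was called higher in the Notch2 cKO libraries and 0 lower by limma with Benjamini-Hochberg adjustment at 0.05, which is 0.00866% and 0% of the genes tested. An unadjusted p under 0.05 was reached by 695 genes, or 6.02%. Without the correction, 41 genes were called higher and 21 lower, and only 1 gene was called in both fits. Of those 62 genes, 27 had a mean under 50 reads over the 4 libraries and 26 were shorter than 200 bases. The fits also differed in limma's prior degrees of freedom, which set how far the spread of each gene is drawn to that of all genes. They were 7.14 with the correction and 104 without it. The parts of the length trend and of this setting in the fall of calls were not tested. The 2 Notch2 cKO values lay above both WT values for 17.4% of all genes tested and below both for 17.2%, and counts of groups that do not overlap are read against these shares below. With 2 libraries in each group, an exact permutation test of any single gene cannot give a two-sided p below 0.333.

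The gene called in both fits was Mir26a-1, which encodes a widely expressed microRNA known in muscle for targeting Ezh2. The gene is a hairpin of 90 bases on chromosome 9, at 119031796 to 119031885 of the plus strand in GRCm38, inside Ctdspl and outside all 13 annotated exons of that gene. The hairpin and the mature strand are shown because this is the feature that passed the test, together with the mature strands of Mir708 and Mir130a, other short genes with both Notch2 cKO libraries above both WT libraries, chosen after their values were seen. Capitals mark the mature 5p strand in the hairpin and the seed, bases 2 to 8, in the mature strands (RefSeq, GRCm38.p6).
Mir26a-1 hairpin: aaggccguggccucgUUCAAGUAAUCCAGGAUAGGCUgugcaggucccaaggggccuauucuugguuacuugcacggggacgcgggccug
mmu-miR-26a-5p: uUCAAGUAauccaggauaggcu
mmu-miR-708-5p: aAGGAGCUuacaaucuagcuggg
mmu-miR-130a-3p: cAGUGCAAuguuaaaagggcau
The 3 seeds differ from each other.

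Mir26a-1 stood at 5.89 and 6.55 RPKM in the Notch2 cKO libraries and at 0.455 and 0 RPKM in the WT libraries. These values rest on 11 and 17 reads against 1 and 0 reads. Both WT values lay under the filter of 1 RPKM, so the gene passed it through the knockout libraries. The corrected difference was 2.82 (SE 0.226, limma adjusted p = 0.00547), and the uncorrected one 2.58. The call was lost with a pseudocount of 0.1 (adjusted p = 0.133), without the filter (0.907) and with limma voom on the recovered reads (0.382), while the fold change was 2.39 to 5.01 in the alternatives that kept the gene. Ctdspl, the surrounding gene, lay on the other side of 0, at 8.01 and 5.39 RPKM against 7.39 and 11.5 RPKM (log2 fold change -0.64, SE 0.233, limma adjusted p = 0.757). The reads count RNA that overlaps the hairpin, not the mature strand, which a library primed from poly(A) tails does not capture.

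Of 73 tested genes whose name begins with Mir, Mir26a-1 included, a group chosen after its values were seen, 56 had a fold change above 0 and the median was 0.50. Members near 1 RPKM could pass the filter by being high in the Notch2 cKO libraries, so this count is partly set by the filter. Of all 179 genes under 200 bases, 120 lay above 0, or 67.0%, beside 76.7% of the Mir genes. Of the 73 Mir genes, the 2 groups did not overlap in 24 with the Notch2 cKO above and in 6 with it below, beside 17.4% and 17.2% of all genes tested. Their median depth was 5 reads, and 1 read on 100 bases is worth 0.347 to 0.482 RPKM in these libraries. Mir708 stood at 3.10 and 1.59 RPKM against 0.376 and 0.401 RPKM (log2 fold change 1.49, limma adjusted p = 0.205) and Mir130a at 5.27 and 2.71 RPKM against 1.28 and 1.37 RPKM (1.26, 0.296). Genes under 200 bases as a whole had a p under 0.05 in 33.5% of cases, against 2.4% of genes of 5000 bases or more. A single WT library, Em2, stood apart in this class after the length correction, with a median of -0.458 relative to the 4-library mean. The corrected medians of the others were 0.186 (Notch2 cKO Em3), 0.141 (Notch2 cKO Em4) and 0.095 (WT Em4). Uncorrected, the median of WT Em2 was -0.122. The part of depth, length and the correction in the values of the Mir genes and of this class was not tested.

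Notch2 itself was 3.35 and 2.03 RPKM in the Notch2 cKO libraries and 2.40 and 4.17 RPKM in the WT libraries, so the deposited levels overlapped (log2 fold change -0.21, SE 0.21, limma adjusted p = 0.927). After the length correction both Notch2 cKO libraries, at 1.93 and 1.83 on the log2 scale, lay below both WT libraries, at 2.001 and 2.18. No source used here says which exons the floxed allele loses, and a gene-level RPKM includes exons that remain after recombination. The transcript level therefore checks the genotype label in neither direction. Notch1 was 11.8 and 8.39 RPKM against 7.26 and 13.5 RPKM (-0.02), and Notch3 was 6.48 and 5.97 RPKM against 5.74 and 11.0 RPKM (-0.38, limma adjusted p = 0.886). Neither receptor passed, and the deposited levels of both overlapped between the groups. On the corrected log2 scale Notch1 still overlapped, while Notch3 lay below both WT libraries, at 2.73 and 2.95 against 2.995 and 3.44.

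Among the ligands, Dll1, which is known for its expression in differentiating myoblasts, stood at 21.1 and 15.8 RPKM against 7.71 and 11.5 RPKM (0.62, SE 0.235, limma adjusted p = 0.772). Both Notch2 cKO values were above both WT values, but Dll1 did not pass. Of 8 tested receptors and ligands, 0 were called, 4 lay above 0 and 4 below it, with a median of 0.001. Of 23 tested genes of Notch processing and the nuclear complex, 0 were called and 14 lay above 0, with a median of 0.02. Numb, an adaptor that antagonizes Notch, was 4.42 and 7.57 RPKM against 3.09 and 2.92 RPKM (0.61, limma adjusted p = 0.789).

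Hes1, a repressor and the classical direct target, had the smallest p of the targets named. It was 162 and 143 RPKM in the Notch2 cKO libraries and 271 and 194 RPKM in the WT libraries (-0.63, SE 0.218, unadjusted p = 0.0179, limma adjusted p = 0.757). Hey1, another repressor, was 18.6 and 30.7 RPKM against 24.4 and 27.1 RPKM (-0.30), and Heyl was 12.4 and 15.3 RPKM against 11.1 and 20.1 RPKM (-0.33). Both of these overlapped between the groups in the deposited levels. Hes6, which is not a classical Notch target and favours differentiation, was 201 and 148.0 RPKM against 141 and 164 RPKM (0.17). Nrarp, a feedback inhibitor, was 2.32 and 3.48 RPKM against 2.205 and 3.64 RPKM (-0.24). Snai2, on the same list, lay on the other side at 68.0 and 66.2 RPKM against 43.2 and 37.9 RPKM (0.55, limma adjusted p = 0.772). Of the 13 tested targets, 0 were called, 7 lay above 0, and their median was 0.04 beside 0.003 for all genes. The groups did not overlap in 2 targets with the Notch2 cKO above, or 15.4%, and in 1 with it below.

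Pax7, the marker of the progenitors, was 10.7 and 4.15 RPKM in the Notch2 cKO libraries and 9.90 and 11.96 RPKM in the WT libraries (-0.84, SE 0.346, limma adjusted p = 0.79). Notch2 cKO Em4 was the low library, while Notch2 cKO Em3 lay within the WT range of deposited levels. On the corrected log2 scale Notch2 cKO Em3 stood at 3.44, below both WT libraries at 3.71 and 3.63. Without Notch2 cKO Em4 the difference was -0.24, and without Notch2 cKO Em3 it was -1.45. Myf5 was 32.5 and 41.8 RPKM against 54.3 and 50.4 RPKM (-0.67, SE 0.211, limma adjusted p = 0.698), with both Notch2 cKO libraries below both WT libraries. Msc, a repressor of myogenic factors, was also lower in both, at 167 and 184 RPKM against 209 and 259 RPKM (-0.51, limma adjusted p = 0.757). Sox8, a transcription factor of muscle progenitors, went the other way, at 37.8 and 24.6 RPKM against 10.5 and 15.5 RPKM (0.93, limma adjusted p = 0.648). Of 27 tested progenitor genes, 0 were called, 11 lay above 0 and 16 below, and the median was -0.04. In bulk samples, fewer progenitors and less RNA per progenitor cannot be told apart.

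The differentiation factor Myog was 1655 and 1737 RPKM in the Notch2 cKO libraries and 1053 and 1272 RPKM in the WT libraries (0.50, SE 0.158, unadjusted p = 0.011, limma adjusted p = 0.703). Its groups did not overlap. Myod1 was 179.5 and 188 RPKM against 135 and 167 RPKM (0.16, SE 0.182, limma adjusted p = 0.944). Mybph, a myosin-binding protein, was 17.5 and 24.3 RPKM against 5.87 and 10.7 RPKM (1.14, SE 0.263, limma adjusted p = 0.385). It was among the genes called higher without the length correction. Mef2a, a partner of the myogenic factors, was 34.3 and 31.6 RPKM against 19.03 and 16.0 RPKM (0.62, limma adjusted p = 0.772), and Mef2c was 17.6 and 14.7 RPKM against 9.77 and 10.6 RPKM (0.51, 0.789). The fusion proteins Mymk (157 and 191 RPKM against 146 and 143 RPKM) and Mymx (313 and 268 RPKM against 308 and 222 RPKM) had fold changes of 0.21 and 0.27.

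Of 27 tested genes of myoblast commitment and fusion, 0 were called, 20 lay above 0, and the median was 0.16. It was 0.043 without Notch2 cKO Em4, 0.251 without Notch2 cKO Em3 and 0.096 without WT Em2. The groups did not overlap in 12 with the Notch2 cKO above, or 44.4%, and in 2 with it below, or 7.4%, beside 17.4% and 17.2% of all genes. The median member stood at 0.01 and 0.19 relative to the 4-library mean in the Notch2 cKO libraries (Em3, then Em4), and at -0.13 and -0.08 in the WT libraries (Em2, then Em4). Earlier results of these data were known when this list was chosen, so the count is a description.

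Beyond the contractile proteins, the genes of excitation-contraction coupling, which link the membrane potential to calcium release, had a median of 0.21 over 19 tested members, of which 14 lay above 0 and 0 were called. That median was 0.097 without WT Em2 and 0.377 without WT Em4. Casq2, the calcium buffer of the sarcoplasmic reticulum, was 10.4 and 16.9 RPKM against 4.44 and 7.16 RPKM (0.87, SE 0.25, limma adjusted p = 0.648). Cacng1, a subunit of the muscle calcium channel, was 14.9 and 15.9 RPKM against 9.80 and 9.17 RPKM (0.68, limma adjusted p = 0.648). Sln, a small inhibitor of the calcium pump, was 62.3 and 98.5 RPKM against 61.3 and 51.4 RPKM (0.84, limma adjusted p = 0.743), and without Notch2 cKO Em4 the difference was 0.44. Mrln, another small inhibitor of that pump, was lower in both Notch2 cKO libraries, at 195 and 224 RPKM against 511 and 280.1 RPKM (-0.44, limma adjusted p = 0.822). Neuromuscular junction genes had a median of 0.145 over 17 members, 13 of them above 0. Dok7, which activates the receptor kinase of the synapse, was 23.1 and 21.4 RPKM against 6.65 and 15.4 RPKM (0.82, limma adjusted p = 0.757). The 24 dystrophin and costamere genes had a median of 0.04.

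**Figure D2:**
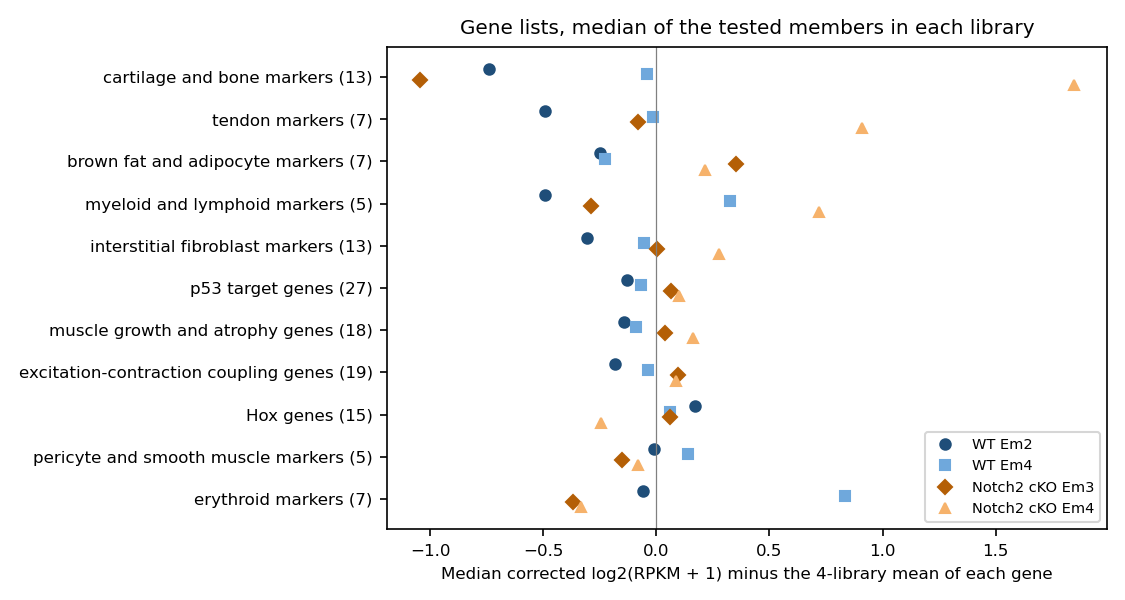
Median over the tested members (number in brackets) of corrected log2(RPKM + 1) minus the 4-library mean of each gene, for the 11 lists whose median fold change lay at least 0.2 from 0, with 1 symbol per library. For p53 targets the Notch2 cKO libraries stood at 0.066 and 0.098 and the WT libraries at -0.13 and -0.068, while for cartilage and bone markers Notch2 cKO Em4 stood at 1.85 and Notch2 cKO Em3 at -1.05.

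Of the 58 lists with at least 5 tested genes, 8 had a corrected median of at least 0.2 and 3 of -0.2 or lower, against 25 and 4 without the length correction. The uncorrected fit is not centred, since its all-gene median was 0.138, so these counts are not measured from the same middle. None of the 58 lists held a called gene. In 11 of the 58 lists both Notch2 cKO libraries had a median above both WT libraries, and in 6 both lay below. Single genes did so in 17.4% and 17.2% of cases, so such a place does not set a list apart. The 11 include FGF and MAPK feedback genes, whose median fold change was -0.039.

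The targets of p53, the stress-induced regulator of arrest and cell death, were one of the 11 lists with both Notch2 cKO medians higher. Their median was 0.24 over 27 tested genes, with 22 above 0 and 0 called, and it was 0.098 without Notch2 cKO Em4 and 0.153 without WT Em2. The groups did not overlap in 12 with the Notch2 cKO above, or 44.4%, and in 1 with it below, or 3.7%. Pmaip1, which encodes the pro-apoptotic protein Noxa, was 15.6 and 17.6 RPKM against 7.08 and 5.49 RPKM (1.03, SE 0.235, limma adjusted p = 0.385). Plk2, a kinase induced by p53, was 53.7 and 62.7 RPKM against 27.8 and 30.9 RPKM (0.71, SE 0.194, limma adjusted p = 0.603). Sesn2, a stress-induced inhibitor of mTORC1, was 8.11 and 7.63 RPKM against 3.005 and 4.33 RPKM (0.70, limma adjusted p = 0.673). In all 3 genes both Notch2 cKO libraries lay above both WT libraries. They were chosen as the 3 members above 0 of smallest p, so this separation is partly set by the choice. The best known members differed less: Cdkn1a, the inhibitor of cyclin-dependent kinases, was 484 and 389 RPKM against 303 and 343 RPKM (0.26, limma adjusted p = 0.902), and Mdm2, the ligase that degrades p53, was 34.9 and 32.1 RPKM against 22.3 and 24.3 RPKM (0.25, 0.919). Bax, the pore-forming protein, was 285 and 231 RPKM against 316 and 311 RPKM (-0.12).

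Genes of muscle growth and atrophy had a median of 0.22 over 18 tested members, with 14 above 0 and 0 called, and it was 0.11 without Notch2 cKO Em4. The groups did not overlap in 9 with the Notch2 cKO above. Bnip3, a mitochondrial receptor for autophagy, was 29.7 and 46.0 RPKM against 22.4 and 15.8 RPKM (0.82, SE 0.271, limma adjusted p = 0.757). Txnip, an inhibitor of thioredoxin and of glucose uptake, was 71.7 and 36.3 RPKM against 20.6 and 28.0 RPKM (0.81, limma adjusted p = 0.789). Notch2 cKO Em3 set the size of the Txnip difference, which was 0.27 without it. Trim63, a ubiquitin ligase of atrophy, was 1.48 and 2.06 RPKM against 0.76 and 1.37 RPKM (0.29).

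Glycolysis and hypoxia genes had a lower median, 0.07 over 33 members, and 0 were called. A p under 0.05 was reached by 6 above 0 and 0 below. Adm, a peptide hormone induced by hypoxia, was 6.35 and 3.94 RPKM against 1.81 and 2.19 RPKM (0.99, limma adjusted p = 0.517). Pgam2, the muscle form of phosphoglycerate mutase, was 56.6 and 65.8 RPKM against 39.5 and 43.7 RPKM (0.95, limma adjusted p = 0.648). Slc2a1, a glucose transporter, was 11.2 and 17.8 RPKM against 5.95 and 9.45 RPKM (0.59, limma adjusted p = 0.80).

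The cell cycle lists held no called gene. Of 37 G1/S and DNA replication genes, 25 lay below 0, the median was -0.12, and the groups did not overlap in 14 with the Notch2 cKO below, or 37.8%. Of 36 G2/M and mitosis genes, 25 lay above 0 and the median was 0.06, but the groups did not overlap in only 3 with the Notch2 cKO above and 4 with it below, and the median was -0.04 without WT Em4. Lig1, the replicative DNA ligase, was 84.9 and 50.5 RPKM against 86.0 and 83.1 RPKM (-0.62, limma adjusted p = 0.834), so only Notch2 cKO Em4 stood clearly apart. Without the length correction the G1/S median was 0.069, above 0 but below the all-gene median of 0.138 in that fit. Without Notch2 cKO Em3 the G1/S median was -0.065. The cell cycle exit genes had a median of 0.18 over 21 members, 14 of them above 0, and it was 0.072 without Notch2 cKO Em3. Gadd45a, a stress-induced inhibitor of the cell cycle, was 62.4 and 47.0 RPKM against 41.5 and 32.5 RPKM (0.58, limma adjusted p = 0.778), and Cdkn1c was 7349 and 7493 RPKM against 6548 and 7339 RPKM (-0.05).

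Stress lists showed how far a single library can reach. Hspa1a, an inducible heat-shock chaperone, was 120.2 RPKM in Notch2 cKO Em3 but 4.08 RPKM in Notch2 cKO Em4, against 2.11 and 3.82 RPKM in the WT libraries (2.43, SE 1.12, limma adjusted p = 0.834). Its neighbour Hspa1b was 165 and 6.54 RPKM against 3.16 and 4.73 RPKM (2.61, limma adjusted p = 0.801). These copies are nearly identical, so the split of reads between them is uncertain. The 27 chaperone genes had a median of 0.15. Among 29 immediate early genes, which respond to dissociation and to growth factors, 19 lay above 0 and the median was 0.18. Jun was 226 and 145 RPKM against 76.9 and 118 RPKM (0.66, limma adjusted p = 0.789), Dusp1 was 38.6 and 36.5 RPKM against 16.8 and 23.9 RPKM (0.72, 0.664), and Fosb lay on the other side at 21.6 and 19.2 RPKM against 20.0 and 34.0 RPKM (-0.60, 0.772). The part of dissociation in these values was not tested.

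Feedback genes of FGF and MAPK signalling lay on both sides of 0. Dusp4, a phosphatase of ERK, was 5.32 and 6.86 RPKM against 2.13 and 2.72 RPKM (0.82, SE 0.209, limma adjusted p = 0.528). Spry1, which restrains receptor tyrosine kinase signalling, was 25.7 and 42.3 RPKM against 11.8 and 22.4 RPKM (0.74, limma adjusted p = 0.772). Its relative Spry2 was 12.1 and 6.30 RPKM against 11.3 and 15.1 RPKM (-0.70, limma adjusted p = 0.801). The 18 tested members had a median of -0.04 and 0 were called.

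In growth signalling, the imprinted RNA H19 was 685 and 413 RPKM against 652 and 1053 RPKM, an overlap in the deposited levels (-0.88, SE 0.274, limma adjusted p = 0.695). Igfbp5, a binding protein of insulin-like growth factors, was 39.0 and 30.2 RPKM against 41.2 and 56.9 RPKM (-0.62, limma adjusted p = 0.711), with both Notch2 cKO libraries below both WT libraries. The 22 insulin and IGF genes had a median of 0.005 and the 25 imprinted genes one of -0.01. Hox genes, which carry position along the body, had a median of -0.24 over 15 members, 12 of them below 0. The median was -0.02 without the length correction, beside an all-gene median of 0.138 in that fit, and -0.047 without Notch2 cKO Em4. Notch2 cKO Em3 stood at 0.059 relative to the 4-library mean, the same as WT Em4. Hoxa4 was 0.631 and 1.16 RPKM against 1.58 and 1.72 RPKM (-0.56, limma adjusted p = 0.80).

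The genes of smallest p with at least 50 reads on average and no overlap between the groups were drawn for both directions, and all 16 missed the threshold. On the higher side, Adipoq, the fat hormone adiponectin, was 5.36 and 4.59 RPKM against 1.70 and 1.35 RPKM (1.27, SE 0.212, limma adjusted p = 0.188). Cidea, a lipid droplet protein of brown fat, was 4.64 and 4.47 RPKM against 1.65 and 1.01 RPKM (1.31, SE 0.219, limma adjusted p = 0.188). Fabp4, a fatty acid carrier, was 92.5 and 75.4 RPKM against 65.1 and 31.2 RPKM (1.17, limma adjusted p = 0.296). These 3 genes all belong to the list of adipocyte markers described below. Mfap5, a protein of elastic fibres, was 14.0 and 15.0 RPKM against 6.12 and 6.32 RPKM (1.07, SE 0.198, limma adjusted p = 0.236). Penk, an opioid precursor, was 13.2 and 17.0 RPKM against 4.61 and 7.003 RPKM (1.22, SE 0.241, limma adjusted p = 0.28). Ccn2, a matrix protein induced by TGF-beta and Yap, was 2.69 and 3.03 RPKM against 0.511 and 0.71 RPKM (1.04, SE 0.212, limma adjusted p = 0.296). Both of its WT values lay under the filter of 1 RPKM. Polr3gl, a subunit of RNA polymerase III, was 7.84 and 6.01 RPKM against 2.34 and 2.59 RPKM (1.16, SE 0.217, limma adjusted p = 0.236).

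On the lower side, Ntn5, a netrin family member, was 20.3 and 23.7 RPKM against 55.4 and 47.4 RPKM (-1.26, SE 0.208, limma adjusted p = 0.188). Shisal2a was 6.34 and 6.38 RPKM against 23.6 and 15.1 RPKM (-1.11, SE 0.201, limma adjusted p = 0.227). Cited1, a transcriptional cofactor, was 98.5 and 106 RPKM against 220.4 and 193 RPKM (-0.89, SE 0.182, limma adjusted p = 0.296). In each of these the 2 libraries of a group lay closer to each other than to the other group. Lix1l was 2.84 and 2.71 RPKM against 5.27 and 5.02 RPKM (-0.94, limma adjusted p = 0.385). The ribosomal proteins Rps3a1 (367 and 180.3 RPKM against 777 and 687 RPKM) and Rpsa (179 and 137 RPKM against 309.8 and 265 RPKM) differed by -1.37 and -1.0 with limma adjusted p of 0.296 and 0.346. Both have processed pseudogenes, so their counts are uncertain.

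The histone variants H2az1 and H2az2, which encode nearly identical H2A.Z proteins, lay on opposite sides. H2az1 was 58.8 and 64.6 RPKM against 31.6 and 34.7 RPKM (1.0, SE 0.209, limma adjusted p = 0.313). H2az2 was 499.4 and 489.8 RPKM against 900.2 and 809 RPKM (-0.87, SE 0.167, limma adjusted p = 0.249). H2az2 had the higher level per length in all 4 libraries, and neither gene passed.

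Promoters of Ntn5, Shisal2a and Cited1, picked from the 8 lower genes of smallest p, are shown because each holds CAGCTG, an E-box sequence of the kind bound by Myod1 and Myog. They were picked for the motif, after it was counted. Each run covers 250 bases before to 50 bases after the annotated start, in the direction of the gene (RefSeq, GRCm38.p6), and capitals mark the motif.
Ntn5: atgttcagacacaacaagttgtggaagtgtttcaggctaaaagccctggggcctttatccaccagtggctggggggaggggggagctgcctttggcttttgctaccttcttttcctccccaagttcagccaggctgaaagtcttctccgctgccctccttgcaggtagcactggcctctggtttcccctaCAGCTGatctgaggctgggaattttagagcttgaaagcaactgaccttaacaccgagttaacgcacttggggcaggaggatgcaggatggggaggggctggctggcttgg
Shisal2a: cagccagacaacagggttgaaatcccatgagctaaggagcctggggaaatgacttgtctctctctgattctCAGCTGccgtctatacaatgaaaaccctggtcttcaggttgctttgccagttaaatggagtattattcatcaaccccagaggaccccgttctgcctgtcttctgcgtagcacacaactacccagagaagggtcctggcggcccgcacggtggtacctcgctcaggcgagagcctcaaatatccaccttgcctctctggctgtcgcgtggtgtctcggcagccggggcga
Cited1: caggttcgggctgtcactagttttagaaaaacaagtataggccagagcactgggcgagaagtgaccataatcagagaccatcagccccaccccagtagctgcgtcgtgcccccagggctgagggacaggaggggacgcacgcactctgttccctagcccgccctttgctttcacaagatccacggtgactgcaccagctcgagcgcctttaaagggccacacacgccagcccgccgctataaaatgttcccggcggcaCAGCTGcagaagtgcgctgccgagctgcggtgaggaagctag
The Ntn5 window is chr7:45683772-45684071 on the plus strand, the Shisal2a window chr4:108383606-108383905 on the minus strand and the Cited1 window chrX:102252132-102252431 on the minus strand. CAGCTG, which reads the same on both strands, was present in 12 of the 40 named genes with a promoter sequence, or 30.0%, and in 18.3% of all 27025 genes with one. Lix1l, another of the 8 lower genes, also holds it. The 40 mix higher and lower genes, genes fixed by name and markers of other cells. Their share therefore says nothing about genes that differ between the groups. GTGGGAA, a form of the Rbpj site, was searched on both strands and found in 2 of the 40, Rps3a1 and Plk2, and in 7.2% of all genes. A match says only that these letters stand in the window.

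Polr3gl and Lix1l are neighbours of Notch2, and the genes near Notch2 on chromosome 3 held more small p-values than the rest, a comparison chosen after these values were seen. Among 11034 genes of at least 200 bases with a position, 1.07% had a p under 0.01. On chromosome 3 this was 2.78%, or 15 of 540 genes, the highest share among chromosomes 1 to 19 and X. Within 5 megabases of Notch2 it was 5.95%, or 5 of 84 genes, and beyond 10 megabases on the same chromosome it was 2.37%, or 8 of 337 genes. Those 5 include Polr3gl and Lix1l, which prompted the comparison. Other measures differed less within 5 megabases. The median absolute fold change was 0.168, against 0.162 for all 11034 genes, and the groups did not overlap in 40.5%, against 34.5%. Polr3gl lies at chr3:96577872-96594181 and Lix1l at chr3:96601149-96626171, 1.44 and 1.41 megabases before Notch2 (GRCm38). These neighbours lay on opposite sides, Polr3gl higher and Lix1l lower in both Notch2 cKO libraries. Txnip starts 1.46 megabases before Notch2. S100a10, 4.46 megabases before it, was 1088 and 1282 RPKM against 2793 and 1723 RPKM (-0.60, limma adjusted p = 0.648), and Casq2 lies 4.07 megabases after it. None of these genes passed the test. The labels give the strain C57BL/6J for both groups, and the part of the chromosome around the floxed allele in these values was not tested.

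**Figure D3:**
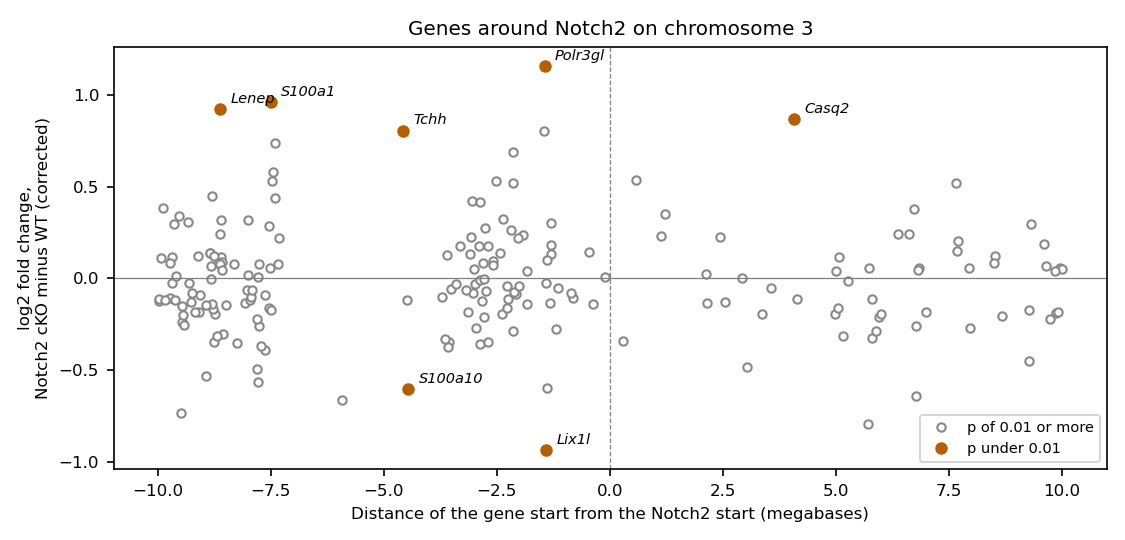
Corrected log2 fold change, Notch2 cKO minus WT, of the tested genes of at least 200 bases within 10 megabases of Notch2 against their distance from its start, with filled points for an unadjusted p under 0.01. The 7 filled points include Polr3gl at 1.16 and Lix1l at -0.94, both within 2 megabases of Notch2. These genes prompted the comparison and are among the 5 of the 7 that lie within 5 megabases.

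The mitochondrial ribosomal RNAs mt-Rnr1 and mt-Rnr2 were lower in both Notch2 cKO libraries. mt-Rnr2 was 6201 and 4430.1 RPKM against 9490.4 and 9475 RPKM (-0.93, SE 0.172, limma adjusted p = 0.236), and mt-Rnr1 was 1167 and 664 RPKM against 2119 and 1547 RPKM (-0.91, SE 0.239, limma adjusted p = 0.565). The nuclear genes of oxidative phosphorylation, which are short, had a median of -0.10 over 43 members and 33 of them lay below 0. That median was -0.29 without the length correction, so the correction removed most of it. Cox6a2 and Cox8b, muscle forms of cytochrome oxidase subunits, lay above 0, at 31.6 and 34.7 RPKM against 24.2 and 22.2 RPKM (0.78, limma adjusted p = 0.603) and at 27.6 and 26.9 RPKM against 24.6 and 18.7 RPKM (0.76, 0.603). Replication-dependent histone genes, also short, had a median of 0.06 over 31 members after the correction and -0.24 before it. The 24 cholesterol synthesis genes had a median fold change of -0.02, but stood at -0.33 in Notch2 cKO Em3 and 0.30 in Notch2 cKO Em4, so the replicates differed more than the groups.

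Markers of cells outside the muscle lineage differed between the libraries, and their values are given because they can move with any list above. Of the 160 such markers in the file, in 11 lists, 0 were listed at 0 in all 4 libraries. The 12 erythroid markers in the file, of which 7 were tested, summed to 522 and 451 RPKM in the Notch2 cKO libraries and 984 and 1226 RPKM in the WT libraries, although Ter119, a red cell surface marker, was among the antibodies of the sort. All 7 lay below 0, with a median of -0.78, and 0 were called. The median was -0.306 without WT Em4 and -1.28 without WT Em2. Hba-a2, an alpha globin, was 193 and 165 RPKM against 431 and 478 RPKM (-1.0, SE 0.23, limma adjusted p = 0.385). Gata1, the defining factor of red cells, was at most 0.0192 RPKM.

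The adipocyte markers summed to 119.7 and 97.8 RPKM against 77.3 and 44.9 RPKM. Of 7 tested, 6 lay above 0, the median was 0.49, 0 were called, and the groups did not overlap in 5 with the Notch2 cKO above. Zic1, a marker of brown fat precursors, lay on the other side at 0.864 and 0.456 RPKM against 1.17 and 1.11 RPKM (-0.64, limma adjusted p = 0.789). The interstitial fibroblast markers summed to 244 and 309 RPKM against 196 and 266 RPKM, ranges that overlap. Of 13 tested, 8 lay above 0, and the median was 0.41, but it was -0.109 with a minimum of 5 RPKM. Lum, a collagen-binding proteoglycan, was 10.8 and 21.6 RPKM against 6.26 and 7.61 RPKM (0.87, limma adjusted p = 0.732) and its relative Dcn was 50.3 and 61.3 RPKM against 30.7 and 40.7 RPKM (0.73, limma adjusted p = 0.757). Tcf4 on chromosome 18, the most abundant gene of that list, was 66.2 and 49.8 RPKM against 52.2 and 71.7 RPKM (-0.16). It encodes an E protein and is not Tcf7l2, the fibroblast marker also called TCF4. Its value therefore does not speak for fibroblasts, although it is part of the sums of that list.

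Cartilage markers were high in a single library. The list summed to 249.5 RPKM in Notch2 cKO Em4, 18.8 RPKM in Notch2 cKO Em3, and 23.9 and 47.7 RPKM in the WT libraries. Col2a1, the main collagen of cartilage, was 55.4 RPKM in Notch2 cKO Em4 and 0.648 RPKM in Notch2 cKO Em3, against 2.202 and 7.62 RPKM (0.70, SE 1.25, limma adjusted p = 0.967). Of 13 tested, 12 lay above 0, but in 0 of them did the groups not overlap, and the list median of 0.76 was -0.656 without Notch2 cKO Em4. Members could pass the filter through that library alone, as did Matn3, at 7.95 RPKM there and at most 0.653 RPKM in every other library. The count and the median are therefore partly set by the filter. Without Notch2 cKO Em4 the Col2a1 difference was -1.89. Fmod, a tendon and cartilage proteoglycan, followed the same library at 0.641 and 7.66 RPKM against 0.501 and 1.61 RPKM (0.68), and without that library it was -0.46.

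Mast cell markers, of which 4 were tested, summed to 15.0 and 39.2 RPKM against 4.49 and 11.7 RPKM, and the median was 1.26. Cma1, a mast cell protease, was 4.62 and 12.7 RPKM against 1.52 and 4.55 RPKM (1.31, SE 0.473, limma adjusted p = 0.757). Myeloid markers summed to 18.3 and 34.1 RPKM against 16.47 and 24.8 RPKM. Of 5 tested, 3 lay above 0 and 2 below, with a median of 0.42 that was -0.089 without Notch2 cKO Em4. Lyz2, a lysozyme, was high in Notch2 cKO Em4 at 11.4 RPKM. It was 1.46 RPKM in Notch2 cKO Em3 and 0.891 and 4.10 RPKM in the WT libraries (0.92). Cd68, the most abundant of the list, lay on the other side, at 7.27 and 5.13 RPKM against 8.69 and 9.64 RPKM (-0.41, limma adjusted p = 0.883). Endothelial markers summed to 26.4 and 30.6 RPKM against 23.5 and 30.0 RPKM, ranges that overlap. Of 5 tested, 1 lay above 0 and 4 below, the median was -0.194, and 0 were called. The groups did not overlap in 2 with the Notch2 cKO below and in 0 with it above. Egfl7, the only member above 0, was 17.2 and 19.5 RPKM against 15.9 and 18.1 RPKM (0.02). Pericyte and smooth muscle markers summed to 630.2 and 644 RPKM against 508 and 503 RPKM, above both WT libraries, although the median over 5 tested genes was -0.29. Acta2, which early muscle cells also express, was 512 and 525 RPKM against 381 and 355 RPKM (0.38, limma adjusted p = 0.834). The part of these cells in the muscle and stress lists was not tested.

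**Figure D4:**
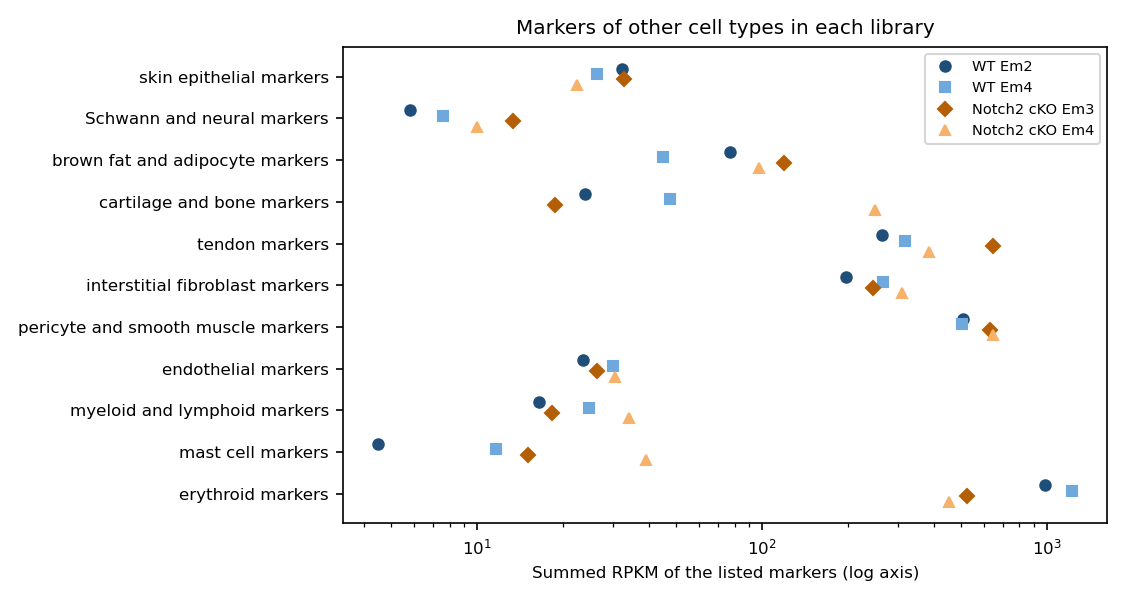
Summed RPKM (log axis) of the markers of 11 other cell types, with 1 symbol per library. Erythroid markers lie below both WT libraries in both Notch2 cKO libraries, and cartilage and bone markers reach 249.5 RPKM in Notch2 cKO Em4 only. Adipocyte, mast cell, tendon, Schwann and neural, and pericyte and smooth muscle markers lie above both WT libraries in both Notch2 cKO libraries. The tendon sums were 647 and 385 RPKM against 264 and 318 RPKM. Most of each was Egr1, an immediate early gene, at 597 and 307 RPKM against 225 and 266 RPKM.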

How the data were processed

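The authors deposited 1 table of RPKM values per gene and library. Reads were demultiplexed with bcl2fastq 2.20.0 and the build was mm10, per the submitters' processing notes; no source used here names the aligner, counter or annotation. Libraries were made with a SMART-Seq kit, per the labels' protocols. Whole reads and gene lengths were recovered from the steps between RPKM values: 97.8% of 3842 low-count genes gave a whole length within 0.02 bases. Named genes averaging 1 RPKM or more were tested with limma 3.58.1 (R 4.3.3) on log2(RPKM + 1), after subtracting from each library a lowess (span 0.3) on log2 length. Single genes were named as the Notch and myogenic genes fixed by name, the 8 of smallest p in each direction with at least 50 reads, the 3 leading members of each list with a median at least 0.2 from 0, and the most abundant marker of each other cell type; further members of described lists, microRNA genes and genes near Notch2 were chosen after their values were seen. Members and lists were chosen with earlier results of these data known. Positions came from GENCODE M21 (24654 of 25873 names matched). The steps were tested on simulated data. Pseudocount, filter, length correction, scaling, left-out libraries and voom were varied.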

Additional observations from a re-analysis of the deposited data

How the results depend on the processing

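The counts of called genes (1 higher, 0 lower) depended on the processing. The prior degrees of freedom of limma were 7.14 in the main fit and 2.41 without the filter. They were 104 without the length correction and infinite with median-of-ratios scaling. They were also infinite with either Notch2 cKO library left out and in the fit on column-name digits given below. An infinite value replaces the spread of each gene with the trend over all genes. Higher and lower calls numbered 0 and 0 with a pseudocount of 0.1, without the filter, with a minimum of 5 RPKM and with limma voom on recovered reads, 41 and 21 without the length correction, 4 and 0 with a straight line in log2 length, 12 and 1 with annotation lengths, 46 and 44 with median-of-ratios scaling, and 3 and 1 with quantile normalization. With 1 library left out, higher calls ranged from 1 to 232 and lower calls from 0 to 171. The high counts came without Notch2 cKO Em3 (232 and 171) and without Notch2 cKO Em4 (163 and 38), where the lone Notch2 cKO library is assumed to vary like the others and the spread rests on the WT pair. Under limma voom, 692 genes had an unadjusted p under 0.05.

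The direction of a few named genes turned. Notch1 was 0.002 without the length correction and -0.225 to 0.181 with 1 library left out. With median-of-ratios scaling Hes6 was -0.034, Fcer1g -0.012 and Egfl7 -0.092, and with quantile normalization Fcer1g was -0.053 and Egfl7 -0.058. Egfl7 was -0.077 with annotation lengths. With 1 library left out, the ranges that crossed 0 were -0.598 to 0.002 for Hey1, -0.049 to 0.382 for Hes6, -0.036 to 1.75 for Tyrobp, -0.271 to 2.10 for Lyz2, -0.089 to 0.924 for Fcer1g, -0.462 to 1.82 for Fmod, -0.311 to 2.35 for Matn3, -0.268 to 1.80 for Ucma, -0.793 to 3.12 for Snorc, -0.044 to 0.091 for Egfl7, -1.89 to 3.30 for Col2a1 and -0.292 to 0.888 for Prph. Of 58 list medians, 42 changed sign under some alternative, but only 3 of the 11 at least 0.2 from 0: cartilage and bone, interstitial fibroblast, and myeloid and lymphoid markers, the last at -0.37 with a minimum of 5 RPKM. The all-gene median was 0.138 without the length correction and -0.041 with median-of-ratios scaling. In these fits 0 was therefore not the middle of all genes. The cause of the sign changes was not tested.

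No paired analysis was possible because the columns carry no replicate numbers. Among the Notch2 cKO and WT libraries, only the Em4 libraries share the trailing digits of their column names. Notch2 cKO Em3 shares its digits with the Notch1 cKO library. The digits have no stated meaning, and as written they leave no residual degrees of freedom for a term. If the shorter form in WT Em2 stands for that of the Em4 libraries, an alternative chosen after seeing the data, 1 degree is left and the estimate compares Notch2 cKO Em4 with both WT libraries: 235 genes were called higher and 169 lower, Hey1 was at 0, Hes6 at -0.048 and Prph at -0.293. Within the pair that shares digits, the Em4 libraries, Myog differed by 0.41, Hes1 by -0.47, Pax7 by -1.40 and Mir26a-1 by 3.07. Depth limits Mir26a-1: 1 or 0 reads stand behind the WT values of Mir26a-1.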
